A study of Mus musculus with 31 samples.

Results

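RNA of thymus from untreated NDR1 knockout mice (KO, labelled NDR1-/-) was set against RNA of thymus from untreated wild-type mice (WT, labelled NDR1+/+), as 4 arrays against 4. These are 8 of 31 arrays of a study that also measured 4 heterozygous thymi (HT, labelled NDR1+/-) and thymic tumors induced with the mutagen ENU. All of the mice are labelled C57BL/6, and each genotype had 2 female and 2 male thymi, numbered 01 and 02 within each sex. The arrays were chosen by the sample titles, which name thymocytes, whereas the tissue label names thymus. The age of the mice, how the NDR1 allele was made and which part of the gene it removes are not given in the sources used here. Nor is it stated that each array came from a separate animal, so the p-values below measure the spread between arrays, part of which may be technical.

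NDR1 is a serine/threonine kinase of the NDR and LATS family and is encoded by Stk38. It is switched on by MST kinases and by binding of MOB proteins, and it belongs to the branch of signalling around the Hippo pathway that restrains growth and promotes cell death. T cells express it, and it is studied as a suppressor of T cell tumors. In the thymus, precursors pass through double-negative and double-positive stages, named by CD4 and CD8, before mature single-positive T cells leave the organ.

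The values are GCRMA intensities, written below as log2(intensity + 1), and a difference is KO minus WT on that log2 scale, so +1 stands for 2 times the intensity. The deposited normalization gave all 8 arrays the same median intensity, and the lowest correlation between any 2 of the 8 arrays was 0.987 over the genes tested. The T cell receptor and thymocyte marker list, with 14 of its 15 genes measured, averaged 12.9 to 13.0 on all arrays of both genotypes, as a thymus label asks. The main axis of variation among the 8 arrays held 46.1% of the variance and separated male from female thymi in both genotypes. Thymic epithelium markers went the same way: their mean lay between 6.69 and 7.66 on the female arrays and between 5.22 and 5.34 on the male arrays. Sex is balanced over the genotypes and was a term of every fit unless stated. On the second axis KO thymus M_02 stood apart, at -30.1, against -5.16 to 13.2 on the other arrays. The same array had the highest KO mean of the maturation (10.10) and interferon response (8.67) lists described below. The 3' to 5' ratio of control transcripts, a measure of RNA quality, averaged 0.350 ± 0.0371 in KO and 0.363 ± 0.0983 in WT thymi (log2, SD, n = 4 each; 2-sided exact permutation p = 0.857).

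Stk38, the targeted gene, was read first. Its main probe set, 1416252_at, had 11.02, 11.34, 10.64 and 10.67 in KO thymi F_01, F_02, M_01 and M_02, against 11.91, 12.03, 11.69 and 11.81 in the WT thymi of the same names. Every KO array lay below every WT array, and the mean KO intensity was 52.9% of the WT intensity, so the RNA read by this probe set was reduced and not absent. The difference was -0.94 (2-sided exact permutation p = 0.0286, n = 4 each, the smallest p that 4 against 4 can give; 0.171 after adjustment over 6 probe sets of Stk38 and Stk38l). The other Stk38 probe sets did not follow: 1439938_at differed by +0.27 (exact permutation p = 0.257) and 1431303_at, of low signal, by -0.09 (exact permutation p = 0.486). Where these probe sets lie relative to the disrupted part of the gene is not known here, so they check no label. With the mean of its probe sets in place of the main one, Stk38 was at -0.25 (limma adjusted p = 0.816). Stk38l, which encodes the sister kinase NDR2, had probe set differences of -0.25, +0.06 and +0.34 (exact permutation p = 0.286, 0.886 and 0.229, n = 4 each), none beyond the spread between arrays.

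Across all genes, few differed. The limma fit called 12 of 13644 genes at an adjusted p under 0.05, which is 0.088% of those tested. The 9 that fell in KO thymus (0.066%) were Baiap3, Zfp994, Eme2, Anks1, Zfp40, Gnptg, Zfp52, Stk38 and Zfp943, and the 3 that rose (0.022%) were Zfp945 (by its main probe set), Slc49a4 and Hspbap1. At unadjusted p under 0.05 there were 650 genes (4.76%). KO and WT arrays of the same number deviated together, but weakly once sex was removed (correlation 0.141 in females and 0.172 in males). When the replicate numbers were used as a block in place of sex, 6 genes passed in place of 12. Those 6 were Baiap3, Zfp945, Eme2, Slc49a4, Zfp40 and Hspbap1, whereas Anks1 (adjusted p = 0.0508), Gnptg, Zfp943, Zfp52, Zfp994 and Stk38 (adjusted p = 0.0764) missed the threshold narrowly. Leaving out 1 array gave 5 to 11 genes, with 5 without WT thymus F_02, 6 without WT thymus M_01 and 7 without WT thymus M_02. The values of the 8 arrays did not overlap between KO and WT for 253 genes (1.85% of those tested), 133 of them higher in KO (0.975%) and 120 lower (0.88%).

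**Figure D1:**
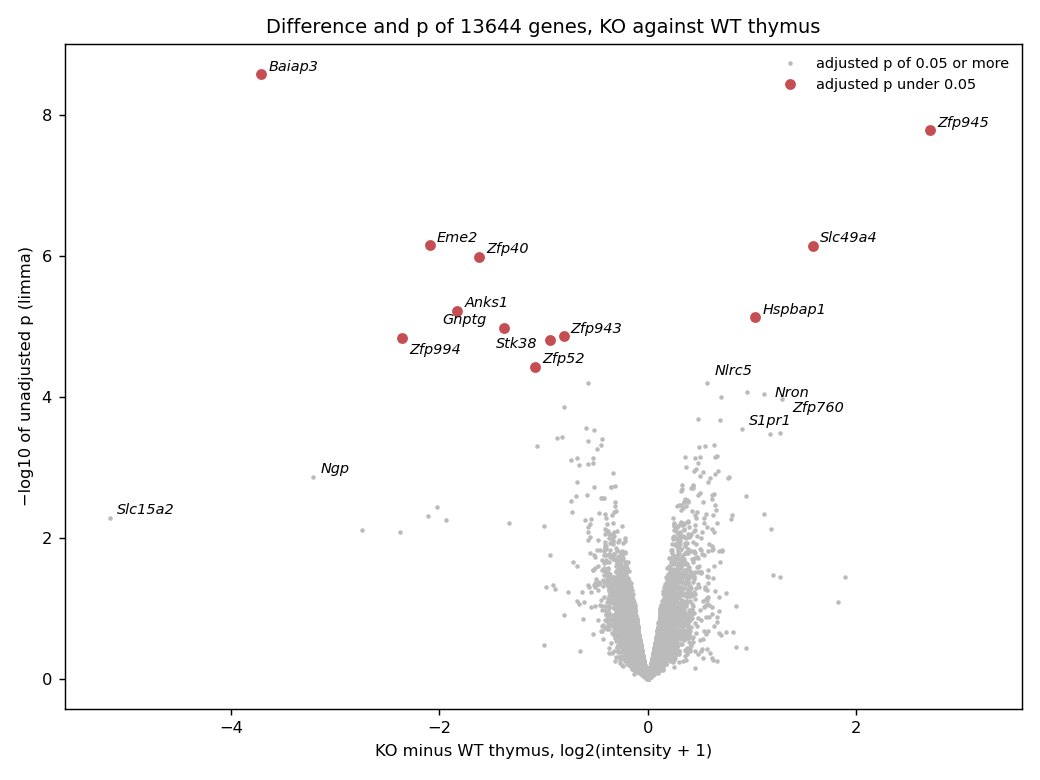
Difference between KO and WT thymus (horizontal, log2) and −log10 of the unadjusted limma p (vertical) of 13644 genes, with the 12 genes of adjusted p under 0.05 as large red points. Baiap3 stands highest at -3.72, and Slc15a2 lies farthest left at -5.16 with a larger p.

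The typical gene differed very little. The median difference over all genes was -0.006, the median size of a difference was 0.07, and 99% of genes differed by less than 0.57. The median standard error was 0.11, which gives a 95% interval of the usual gene of about ± 0.25. For 98.3% of genes the whole interval lay between -1 and 1, so a change of more than 1 on the log2 scale was outside the interval for nearly all genes measured. A size above 0.5 was reached by 191 genes, above 1 by 29 genes and above 2 by 10 genes. The smallest difference that passed was 0.81 in size, and 8 of the 12 genes that passed had an interval lying wholly beyond 1.

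Of the 29 genes with a difference above 1 in size, 10 passed and 19 did not. The spread between arrays was smaller among those that passed, with a median pooled SD of 0.283, against 0.993 among the rest. KO and WT values overlapped in 12 of the 29. The genes that did not pass, named here after their values were seen, included the peptide transporter gene Slc15a2 and the neutrophil genes Ngp, Camp, S100a9, Ltf, S100a8 and Lcn2, all lower on average in KO. They also included the immunoglobulin genes Igkv6-14, Ighg3, Igk and Iglv1, higher on average in KO. Ighg3 had 10.36, 5.55, 5.22 and 6.86 in the KO thymi and 5.34, 5.77, 4.86 and 4.71 in the WT thymi, so its difference of +1.83 came mostly from KO thymus F_01.

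Baiap3 had the largest change among the 12 genes, as read by the probe sets standing for them. It encodes a protein related to the MUNC13 proteins, which ready vesicles for release. It had 3.66, 3.47, 3.94 and 3.75 in KO thymi, against 7.37, 7.41, 7.74 and 7.16 in WT thymi. The KO values lie close to the level of 3.65 below which genes were left out as barely detected, so the signal of its single probe set was near the detection level in KO. Differences of dim values are compressed on this scale, so the size below may be understated. The difference was -3.72 (SE 0.13, limma adjusted p = 3.61e-05), and it was -3.82 in females and -3.61 in males. HT thymi lay between, at 6.45, 6.13, 6.58 and 6.28.

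Eme2, Anks1 and Gnptg, genes with unrelated roles in the cell, also fell. Eme2, which encodes a partner of the MUS81 nuclease that cuts branched DNA, averaged 5.40 ± 0.374 in KO and 7.49 ± 0.258 in WT (SD, n = 4 each), a difference of -2.09 (SE 0.15, limma adjusted p = 0.00245). Anks1, the gene of an adaptor protein with ankyrin repeats, had 6.30, 6.19, 6.52 and 5.75 in KO thymi and 7.85, 8.36, 7.97 and 7.91 in WT thymi, a difference of -1.83 (adjusted p = 0.0138). Gnptg encodes a subunit of the enzyme that tags lysosomal enzymes with mannose 6-phosphate. Its KO values ran from 6.10 to 6.98 and its WT values from 7.89 to 8.17, a difference of -1.38 (adjusted p = 0.0178). None of the 3 overlapped between the genotypes.

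Of the 12 genes, 5 are named Zfp and a number, as are 302 of all genes tested (2.21%), a grouping made after the values were seen. Zinc-finger proteins of this type bind DNA, many of them to silence transposable elements, and their genes lie in clusters of similar sequence. Zfp994 had 4.51, 4.95, 4.56 and 4.76 in KO thymi and 6.59, 6.79, 6.90 and 7.94 in WT thymi (difference -2.36, limma adjusted p = 0.0197). Zfp40 averaged 6.79 ± 0.199 in KO and 8.42 ± 0.175 in WT (difference -1.62, adjusted p = 0.00282). Zfp52 (-1.08, adjusted p = 0.0428) and Zfp943 (-0.81, adjusted p = 0.0197) fell less, again without overlap of KO and WT arrays. Zfp945 was higher in KO by its main probe set, with 8.81, 9.06, 8.18 and 8.67 in KO thymi and 6.11, 6.20, 5.71 and 5.87 in WT thymi (difference +2.71, adjusted p = 0.000113), although another of its probe sets was lower, as described below. Zfp760 (+1.29, adjusted p = 0.0823) and Zfp983 (+0.70, adjusted p = 0.0805) were higher on average and did not pass. Because members of this family are alike, a probe set may read more than 1 of them, and the values of single members are uncertain for that reason.

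**Figure D2:**
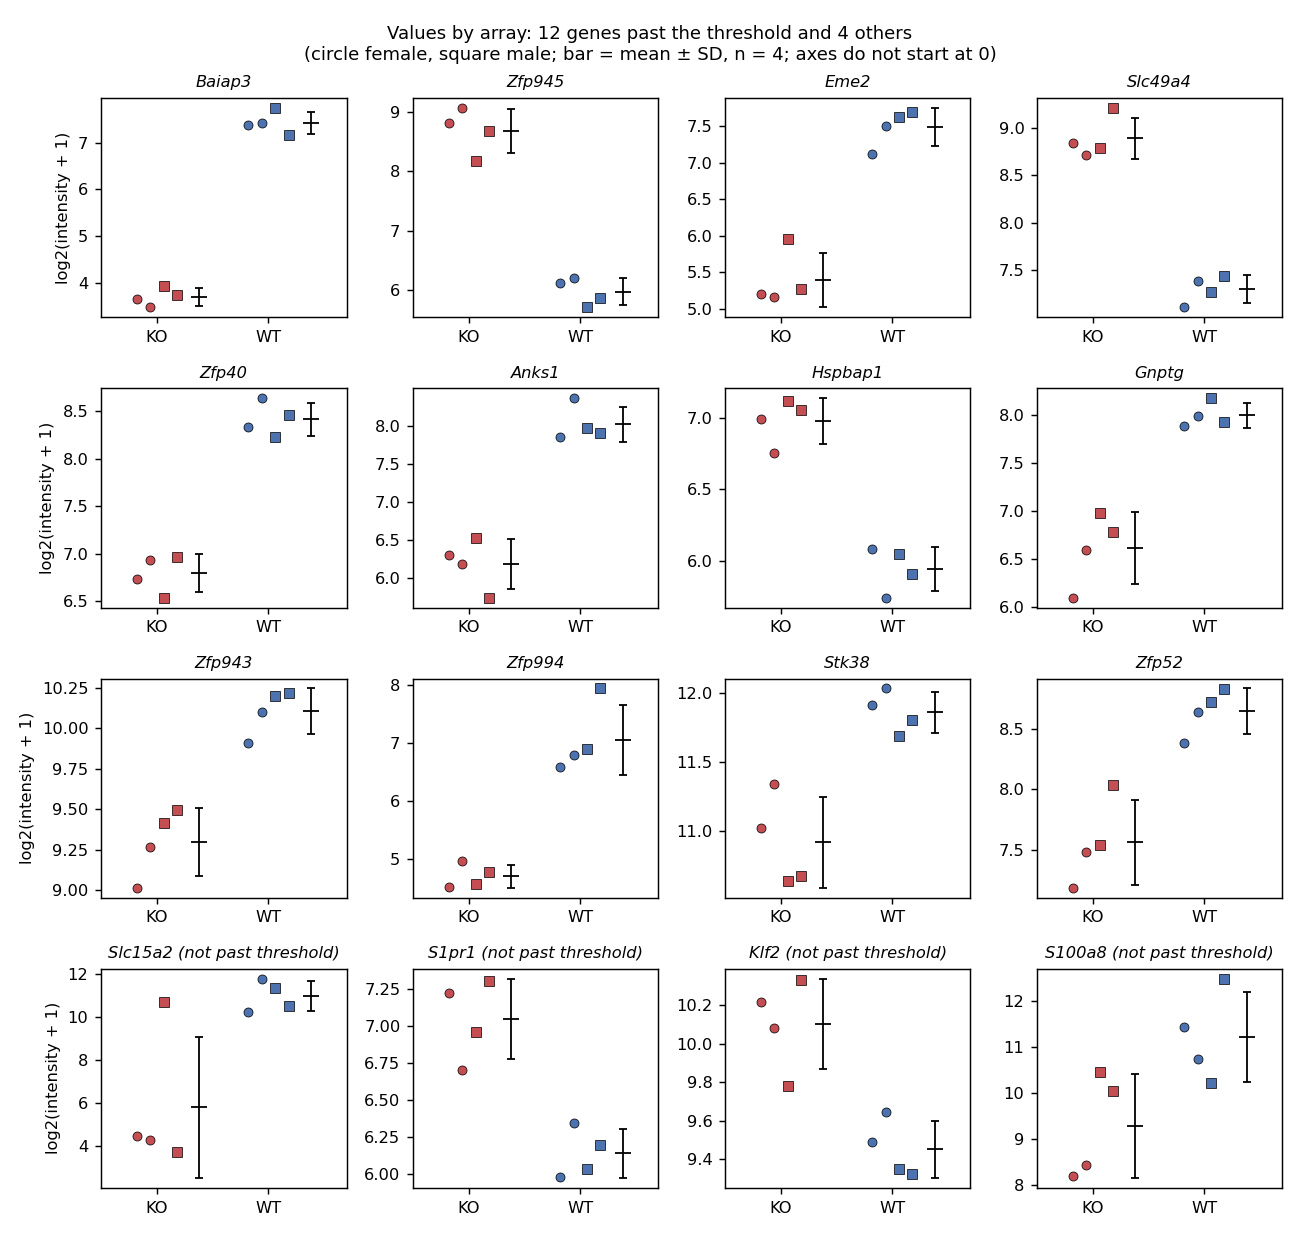
Values of the 12 genes that passed and of 4 that did not, as log2(intensity + 1) on each of the 4 KO (left, red) and 4 WT (right, blue) thymus arrays, circles female and squares male, with mean and SD. KO and WT do not overlap for any of the 12, whereas Slc15a2 has 1 KO thymus at 10.69 among the WT values.

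The genes that rose beside Zfp945 are neighbours. Slc49a4, which encodes a lysosomal membrane transporter, had 8.84, 8.71, 8.79 and 9.20 in KO thymi and 7.11, 7.39, 7.26 and 7.44 in WT thymi (difference +1.59, SE 0.12, limma adjusted p = 0.00245). Hspbap1, which encodes a protein that binds the small heat shock protein HSPB1, had 6.99, 6.75, 7.12 and 7.05 in KO thymi and 6.08, 5.74, 6.05 and 5.91 in WT thymi (difference +1.03, SE 0.10, adjusted p = 0.0146). The differences were alike in females and males, at +1.53 and +1.65 for Slc49a4 and at +0.96 and +1.11 for Hspbap1. On chromosome 16 the pair stand next to each other and point away from each other, with 1015 bases between their listed starts. The next gene beyond Hspbap1 in that order is Parp14, and its values did not overlap either (9.57 ± 0.0943 in KO and 9.20 ± 0.124 in WT, SD, n = 4 each). Of all genes, 0.975% had KO values wholly above WT values. The Parp14 difference of +0.38 did not pass (adjusted p = 0.465). Dtx3l (+0.18) and Parp9 (+0.29, adjusted p = 0.816) follow, higher on average with overlap, and then Kpna1 (-0.06). On the other side of Slc49a4, Pdia5 (-0.31) and Sec22a (+0.13) overlapped between the genotypes. Whether the levels of Parp14, Dtx3l and Parp9 have to do with their place was not tested. Whether inherited sequence differs between the groups on chromosome 16 was not tested either.

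The 250 bases before the start of these neighbours are shown because the pair changed together, followed by those of the genes with the largest fall and rise. They are RefSeq sequence of build GRCm38.p6, written 5′ to 3′ on the strand of the gene: Slc49a4 at chr16:35769371-35769620 (minus strand), Hspbap1 at chr16:35770136-35770385 (plus strand), Baiap3 at chr17:25256365-25256614 (minus strand) and Zfp945 at chr17:22867135-22867384 (minus strand). Capitals mark any of 4 short promoter motifs, searched on both strands. The GC box is spelled GGGCGG. The CCAAT box is spelled by its name. The TATA box is spelled TATAAA. The ETS motif, bound by ETS family factors, is spelled CCGGAAG.
Slc49a4: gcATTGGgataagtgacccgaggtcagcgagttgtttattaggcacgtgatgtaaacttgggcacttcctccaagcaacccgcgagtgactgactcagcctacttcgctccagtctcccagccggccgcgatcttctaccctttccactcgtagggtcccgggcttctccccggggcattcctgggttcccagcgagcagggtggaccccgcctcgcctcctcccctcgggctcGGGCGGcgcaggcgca
Hspbap1: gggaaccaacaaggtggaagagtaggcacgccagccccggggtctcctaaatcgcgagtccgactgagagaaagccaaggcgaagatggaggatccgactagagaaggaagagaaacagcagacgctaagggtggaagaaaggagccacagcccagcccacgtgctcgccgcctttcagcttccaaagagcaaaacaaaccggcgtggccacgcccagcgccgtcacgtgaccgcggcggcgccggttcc
Baiap3: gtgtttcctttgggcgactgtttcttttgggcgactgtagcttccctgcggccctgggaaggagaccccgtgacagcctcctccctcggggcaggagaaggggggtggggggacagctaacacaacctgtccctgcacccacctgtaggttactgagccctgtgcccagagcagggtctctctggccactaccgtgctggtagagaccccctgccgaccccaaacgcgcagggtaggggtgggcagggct
Zfp945: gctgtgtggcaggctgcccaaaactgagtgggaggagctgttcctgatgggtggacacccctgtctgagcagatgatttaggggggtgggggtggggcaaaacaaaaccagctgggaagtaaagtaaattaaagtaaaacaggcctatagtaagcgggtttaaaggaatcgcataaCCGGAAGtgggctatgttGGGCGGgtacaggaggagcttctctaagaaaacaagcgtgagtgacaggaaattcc
Slc49a4 held 1 GC box and 1 CCAAT box (on the opposite strand) and Hspbap1 and Baiap3 held no match. Zfp945 held 1 GC box and 1 ETS motif. The matches shown do not overlap. Of 32851 promoters in the table, 32.7% held a GC box, 33.8% a CCAAT box, 12.4% a TATA box and 6.91% an ETS motif. Slc49a4 and Hspbap1 were rich in CG pairs, with 20 and 22 in 250 bases, against 9 in Baiap3, 5 in Zfp945 and a median of 6 over all promoters. A promoter was found for 11 of the 12 genes.

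Where several probe sets read a gene that passed, most but not all went the same way. All 4 probe sets of Zfp40 were lower in KO, by -1.62, -2.67, -0.97 and -0.79, and both of Zfp52 were, by -1.08 and -1.06. The second probe set of Slc49a4 was higher (+0.58, 4.92 ± 0.309 in KO and 4.34 ± 0.150 in WT). Hspbap1 had +0.40, -0.02 and +0.03 on its further probe sets, all of low signal. Eme2 (-0.02 and -0.13) and Zfp943 (-0.17) also rest on 1 probe set each, since the others read near the detection level. Baiap3, Anks1, Gnptg and Zfp994 had a single probe set.

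Zfp945 was split. Beside the probe set at +2.71, 1441792_at was at +0.76, whereas 1437128_a_at had 4.18, 4.67, 4.38 and 5.83 in KO thymi and 8.53, 8.87, 8.10 and 8.85 in WT thymi. Its difference of -3.83 passed in a fit of all probe sets (limma adjusted p = 0.0210), so 2 probe sets named for Zfp945 changed in opposite directions, both without overlap. Under the mean of its probe sets the gene differed by -0.12. Which transcript each reads was not tested.

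Over all genes, the sign of 2 probe sets of a gene matched more often where the difference was larger, while the gap between them was also wider. Among 6565 genes with at least 2 probe sets above the filter, the main and the next probe set had the same sign in 58.4%, with a median gap of 0.09. The share was 67.9% of the 496 genes whose main difference was above 0.25 in size (median gap 0.28), 72.5% of 91 above 0.5 (gap 0.52) and 12 of 14 above 1 (gap 0.86). Of the 12 genes that passed, 8 had a further probe set above the filter, and it had the same sign in 6, with a median gap of 1.03. Genes with differences above 0.5 of opposite sign were Zfp945 and Gfer, the gene of a mitochondrial sulfhydryl oxidase, whose main probe set was at -0.80 and whose other was at +0.97.

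In the fit of all 31597 probe sets, 12 passed (0.038%). These included 1454402_at, named for the zinc-finger gene Zfp942 but not the probe set that stood for it above. It averaged 3.90 ± 0.654 in KO and 8.11 ± 0.317 in WT (SD, n = 4 each), a difference of -4.21 (limma adjusted p = 0.00743). The main probe set of Zfp942 was at -0.22. Another, 1435872_at, has no gene named and averaged 7.85 ± 0.698 in KO and 10.45 ± 0.219 in WT, a difference of -2.60 (adjusted p = 0.00853). The main probe sets of Stk38 and Zfp943 (adjusted p = 0.0623 each), Zfp994 (0.0527) and Zfp52 (0.106) missed the threshold there.

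**Figure D3:**
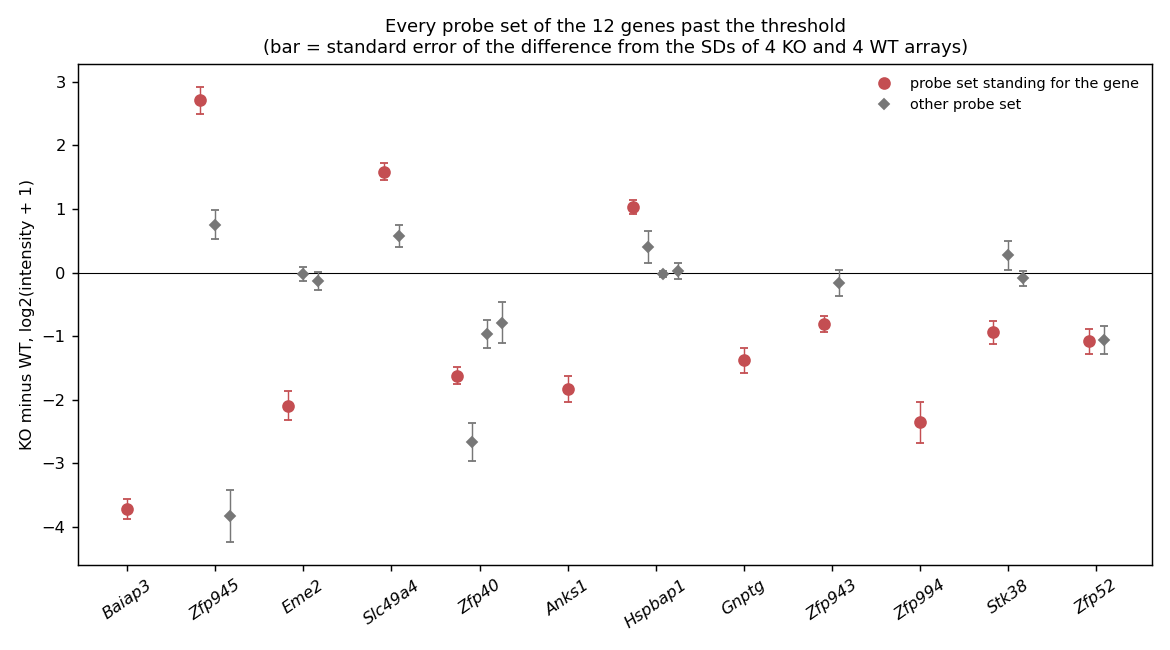
Difference between KO and WT thymus (log2) of every probe set of the 12 genes that passed, the one standing for the gene as a red circle and the others as grey diamonds, with the standard error from the SDs of 4 KO and 4 WT arrays. The 4 probe sets of Zfp40 all lie below 0, whereas those of Zfp945 run from -3.83 to +2.71.

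Of the 12 genes, 10 lie on chromosome 17 with Stk38 itself, where 688 of the genes tested lie (5.07%), and the other 2 are the neighbours on chromosome 16. In gene order all 9 beside Stk38 stood on the same side of it. The zinc-finger genes Zfp52, Zfp943, Zfp994, Zfp945 and Zfp40 lay 217 to 195 protein-coding genes away, Eme2 118, Gnptg 103, Baiap3 101 and Anks1 24. Of 214 genes tested on that side 33 were at unadjusted p under 0.01, and of 431 on the other side 5 were, with 0 passing the adjusted threshold. The 33 include the 9 called genes, whose place picked the side, so this contrast is partly set in advance. In the span from Zfp52 to Anks1, whose ends the called genes set, 18 of the other 129 genes (14.0%) were at p under 0.01, against 1.41% over all genes. Among them Tsr3, between Gnptg and Baiap3, was at -0.60 (adjusted p = 0.168) and Spsb3, next to Eme2, at -0.51 (adjusted p = 0.171).

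Close to Stk38, the counts were near the shares over all genes. Of the 20 nearest tested genes, 10 on each side, 0 passed (0.088% of all genes did). At unadjusted p under 0.05 there was 1 (4.76% of all genes were): Cpne5, 4 genes away, was at +0.62 (limma adjusted p = 0.564). The direct neighbours of Stk38, Kctd20 (-0.05) and Srsf3 (-0.04), were near 0. The labels do not give the genotype of the rest of chromosome 17, so loss of NDR1 and any inherited sequence linked to the Stk38 allele cannot be told apart in these groups.

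**Figure D4:**
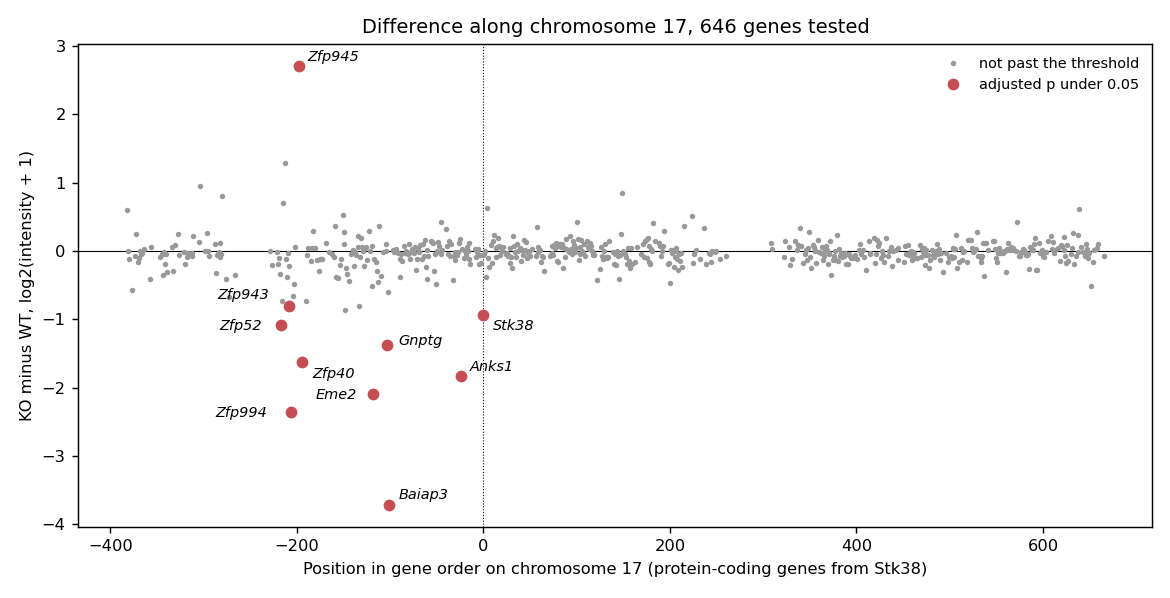
Difference between KO and WT thymus (vertical, log2) of 646 tested genes of chromosome 17 against their place in the order of protein-coding genes, counted from Stk38 at 0 (horizontal). The 10 genes that passed lie at 0 or to the left of it, none to the right.

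Of the genes of NDR signalling other than Stk38, none passed. Of 23 tested, 1 did, Stk38 itself, and the median difference was -0.04 (-0.006 over all genes). The upstream MST kinases Stk24 (+0.02), Stk25 (-0.04), Stk26 (-0.11) and Stk4 (+0.06), the MOB coactivators Mob1a (-0.08), Mob1b (+0.09) and Mob2 (-0.09), and the related kinases Lats1 (-0.06) and Lats2 (+0.19) did not pass. Fry encodes a scaffold of NDR kinases and had the second smallest p of the list. It averaged 7.08 ± 0.213 in KO and 6.58 ± 0.100 in WT (SD, n = 4 each), without overlap, and its +0.51 did not pass (limma adjusted p = 0.324). Yap1, the Hippo pathway coactivator, was barely detected in both (3.84 ± 0.395 in KO and 3.70 ± 0.282 in WT).

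No gene of the cell death and cell cycle lists passed, where 0.088% of all genes did. Of 9 pro-apoptotic BCL2 family genes, 5 were above and 4 below 0, and Bcl2l11, which encodes BIM, averaged 11.99 ± 0.110 in KO and 12.17 ± 0.209 in WT (difference -0.18, limma adjusted p = 1). Pmaip1 (+0.44, adjusted p = 0.900) and Bbc3 (+0.28, adjusted p = 0.995), which encode NOXA and PUMA, were the members of smallest p. Mitosis genes (20 tested, 15 below 0, median -0.05) and DNA replication genes (24 tested, 18 below 0, median -0.02) had 0 genes at unadjusted p under 0.05.

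Genes of late T cell maturation and exit from the thymus were the thymocyte list most shifted. Of 23 tested, 0 passed in limma, 11 were at unadjusted p under 0.05, all higher in KO, and 8 had KO values wholly above WT values. Of all genes, 2.57% were at that p and higher in KO, and 0.975% had KO values wholly above. The median difference was +0.16, against -0.006 over all genes. This list and those described below were chosen with earlier results of these data known. Their excess over all genes is therefore a description and not independent evidence. S1pr1 encodes the receptor that leads mature thymocytes out to the blood. It had 7.22, 6.71, 6.96 and 7.31 in KO thymi and 5.98, 6.35, 6.04 and 6.20 in WT thymi (difference +0.91, adjusted p = 0.168). Klf2, the transcription factor that switches S1pr1 on, had 10.21, 10.08, 9.78 and 10.33 in KO thymi and 9.49, 9.65, 9.35 and 9.32 in WT thymi (+0.65, adjusted p = 0.237). Itgb7, the beta chain of a gut-homing integrin, ran from 8.50 to 8.68 in KO and from 7.52 to 8.22 in WT (+0.67, adjusted p = 0.237). In all 3 every KO array was above every WT array. When the HT arrays were added to the fit to estimate the spread, 26 genes passed (0.191%), among them S1pr1 (adjusted p = 0.0402), Itgb7 (0.0383) and Gimap3 (0.0481).

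Further members of that list were higher on average without passing, among them Gimap3 (+0.64) and Gimap4 (+0.34), of a family of GTPases of lymphocytes, Ms4a4b (+0.52), the chemokine receptor gene Ccr7 (+0.27) and Foxo1 (+0.31), which encodes a transcription factor of resting T cells. Cd69, an early marker of selected thymocytes, averaged 10.31 in both genotypes, Bcl2 was at +0.02 and Gata3 at -0.12. Double-positive stage genes had a median of -0.03 (12 tested, 0 passing) and double-negative stage genes of +0.05 (13 tested, 0 passing). Of the double-negative genes, 2 were at unadjusted p under 0.05 and higher on average in KO (2.57% of all genes were). These were the Notch targets Dtx1 (+0.66) and Nrarp (+0.38). The Notch pathway list was mixed, with 5 of 13 genes above and 8 below 0, a median of -0.04 and 0 passing. At unadjusted p under 0.05 it had 3 genes, all higher in KO (2.57% of all genes were). Its member of smallest p was Lfng (+0.44, limma adjusted p = 0.301). In whole-thymus RNA a change in the share of a cell type and a change in RNA per cell cannot be told apart. Among genes that another blood cell could carry, regulatory T cell markers had a median of +0.05 (8 tested) and B cell markers of -0.09 (12 tested), and their part in the shift was not tested.

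**Figure D5:**
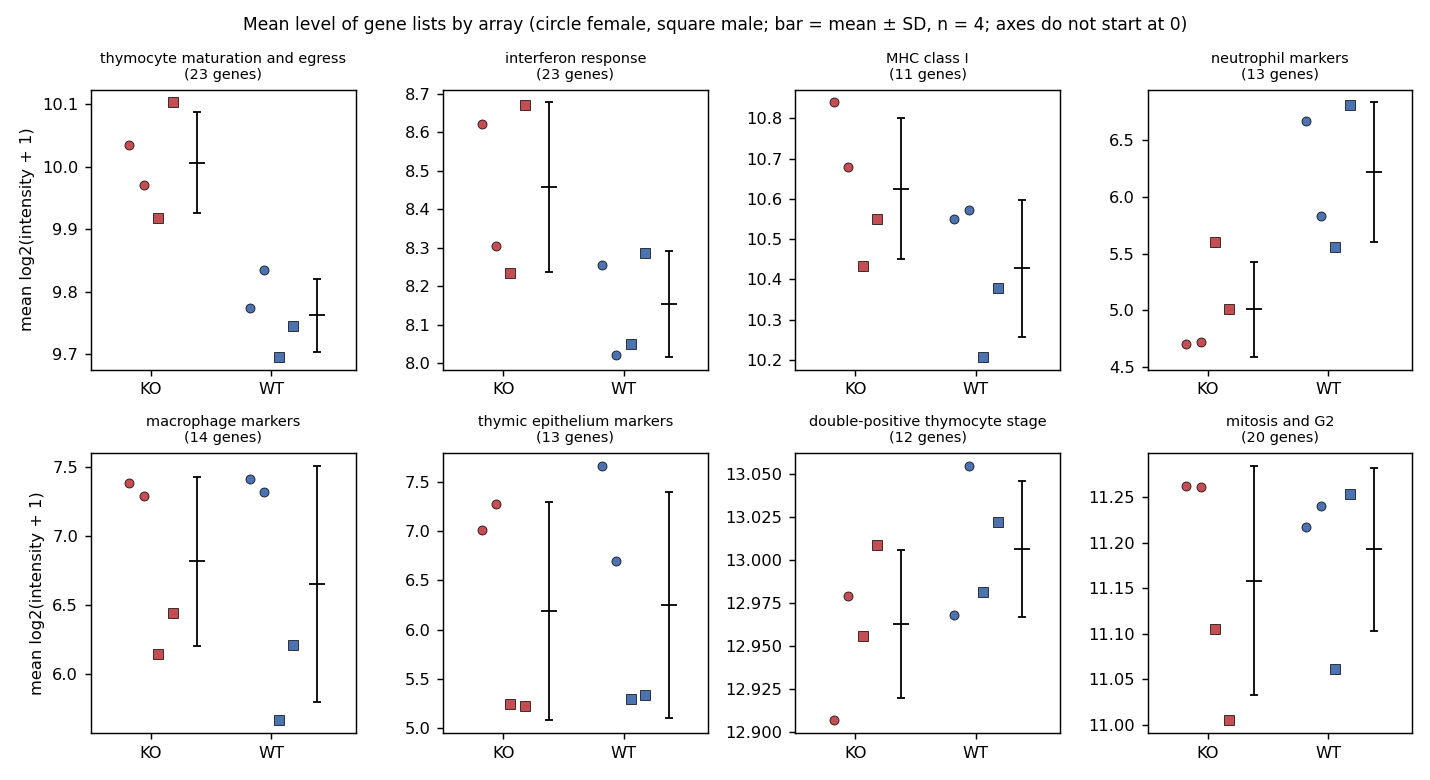
Mean log2(intensity + 1) of 8 gene lists on each of the 4 KO (left, red) and 4 WT (right, blue) thymus arrays, circles female and squares male, with mean and SD. The maturation and exit list lies higher on all KO than on all WT arrays, neutrophil markers overlap through KO thymus M_01 and WT thymus M_01, and thymic epithelium markers follow sex.

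Interferon response genes were mostly above 0. Of 23 tested, 22 were (47.6% of all genes were), with a median of +0.34 and 0 passing. At unadjusted p under 0.05 there were 8, all higher in KO (2.57% of all genes). The sensor gene Ddx58, which encodes RIG-I, was the member whose KO values all exceeded the WT values (8.94 ± 0.0550 in KO and 8.61 ± 0.121 in WT, +0.34, limma adjusted p = 0.520). Xaf1 had 9.63, 9.46, 9.67 and 10.02 in KO thymi and 9.34, 8.99, 9.15 and 9.47 in WT thymi (+0.46, adjusted p = 0.626). The list's mean was 8.24 to 8.67 on KO and 8.02 to 8.29 on WT arrays, so the groups overlapped. Between KO and WT arrays of the same number it was higher in KO in all 4 pairs, by 0.37 (F_01), 0.28 (F_02), 0.19 (M_01) and 0.38 (M_02). The labels do not say what a number shares, and other lists did the same. Regulatory T cell markers (by 0.02 to 0.15) and brown fat markers (by 0.04 to 0.27) were also higher in all 4 pairs. So were the maturation list (by 0.14 to 0.36) and the MHC class I list described below (by 0.11 to 0.29). The double-positive stage and NDR lists were higher in 0. The NDR list includes Stk38 itself, which was lower in KO in every pair, and its pairs were not recomputed without it.

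Antigen presentation genes of MHC class I leaned the same way, with 10 of 11 above 0, a median of +0.14, 0 passing and 4 at unadjusted p under 0.05, all higher in KO (2.57% of all genes). Nlrc5, the transactivator of these genes, came closest, at 9.63, 9.70, 8.77 and 9.00 in KO thymi and 9.10, 9.09, 8.29 and 8.33 in WT thymi (+0.57, limma adjusted p = 0.0625, and 0.0274 with the HT arrays in the fit). Its values differed between sexes, and within each sex both KO arrays lay above both WT arrays. H2-K1 was at +0.42 (adjusted p = 0.379) and H2-D1 at +0.40 (adjusted p = 0.686). These class I genes are close in sequence, so their probe sets may share signal. Both lie on chromosome 17 with Stk38, as does Tapbp (+0.22), whereas Nlrc5 lies on chromosome 8. For the genes on chromosome 17, loss of NDR1 and linked inherited sequence cannot be told apart, as stated above.

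Neutrophil markers were lower on average in KO thymus. Of 13 tested, 12 were below 0 (52.4% of all genes were), 7 of them at unadjusted p under 0.05 (2.19% of all genes), 0 passed, and 2 (Ngp and Ltf) did not overlap (0.88% of all genes). Ngp, the gene of a neutrophil granule protein, had 5.23, 5.30, 7.61 and 6.20 in KO thymi and 10.27, 8.37, 8.04 and 10.50 in WT thymi (-3.21, limma adjusted p = 0.324). S100a8, a subunit of calprotectin, had 8.20, 8.44, 10.46 and 10.06 in KO thymi and 11.44, 10.74, 10.23 and 12.50 in WT thymi (-1.94, adjusted p = 0.618). The median of the list was -0.97, and -0.51 without WT thymus F_01. The mean of the list ran from 4.70 to 5.60 on KO arrays and from 5.56 to 6.81 on WT arrays, so the groups overlapped. Macrophage markers, by comparison, had a median of +0.12 (14 tested). The part of neutrophil RNA in the other differences was not tested.

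Slc15a2, which encodes a transporter of small peptides, had the largest difference of any gene and is described after its values were seen. Its main probe set had 4.50, 4.30, 10.69 and 3.73 in KO thymi, against 10.24, 11.78, 11.33 and 10.52 in WT thymi. It was either near the detection level or strongly expressed, with 1 KO array among the WT values, and its -5.16 did not pass (limma adjusted p = 0.593). HT thymi were split likewise, at 4.39, 10.92, 3.78 and 4.03. Among the tumors, 3 of 7 KO, 4 of 7 HT and 0 of 5 WT exceeded 9. Its other probe sets were near the detection level on all arrays. Slc15a2 lies on chromosome 16, 24 protein-coding genes from Slc49a4.

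The genotype difference was not found to depend on sex. In a fit with a genotype by sex term, 0 of 13644 genes passed in limma (0%), and 550 were at unadjusted p under 0.05 (4.03%). The smallest p values were those of Fbp1 (male minus female difference -1.20), Zswim7 (-1.08) and Golm1 (+1.14), each with adjusted p = 0.995. Of the 12 genes that passed, all differed in the same direction in the female and in the male arrays, and Zfp994 had the largest gap between the sexes (-1.96 in females, -2.76 in males, unadjusted p of the gap = 0.121).

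The levels of the 12 genes were then read in arrays the comparison did not use. Mean HT levels stood between 25.8% (Zfp994) and 77.3% (Zfp945) of the way from the WT mean to the KO mean, which uses the same KO and WT arrays. Tumors are separate samples and were read without a test and without adjustment for sex. Baiap3 had a lowest, median and highest value of 3.40, 3.92 and 6.84 in 7 KO tumors and of 6.90, 7.79 and 9.44 in 5 WT tumors, again without overlap. Anks1 had 6.18, 6.71 and 8.60 in KO tumors and 7.65, 9.88 and 10.58 in WT tumors, and Zfp40 had 2.61, 3.98 and 4.70 in KO tumors and 3.43, 6.42 and 7.12 in WT tumors, both with overlap. Stk38 itself had 8.73, 11.47 and 13.08 in tumors labelled KO and 11.38, 12.42 and 13.04 in WT tumors, so 1 KO tumor was above every WT tumor. The mean difference between KO and WT tumors had the direction seen in thymus for 10 of the 12 genes, Stk38 and Zfp945 included, though the median of Gnptg was 7.16 in KO and 6.97 in WT tumors. The exceptions were Zfp943 (+0.09) and Zfp52 (+0.97), both of which were lower in KO thymus.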

How the data were processed

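RNA was read on Affymetrix Mouse Genome 430 2.0 arrays. The authors deposited 1 intensity per probe set and array, on a linear scale, made with GCRMA (background correction, normalization and summary of probes) per the submitters' processing notes, which name no version. Its background correction brings dim probe sets to a common low level, so differences of dim genes are compressed. The deposited values had nearly the same distribution on all 31 arrays. The labels' protocol names a labelling assay for whole-transcript arrays, while this array reads 3' ends; how that affects levels was not tested. Precision is limited by there being 4 arrays per genotype.

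Of 45101 probe sets, 34944 had 1 gene, 932 several and 9160 none, 64 were controls left out and 1 had no value. Names came from the platform annotation, gene order from RefSeq (GRCm38.p6), where the Entrez gene of 99.4% of single-gene probe sets was found. Values became log2(intensity + 1). A gene was represented by whichever probe set had the highest mean on the 31 arrays, and the lowest 25% (up to 3.65) were left out, which kept 13644 of 18192 genes. Fits used limma 3.58.1 in R 4.3.3 (lmFit, eBayes, sex as covariate, Benjamini-Hochberg over all genes tested, threshold 0.05) and were tested on simulated data. Figures used matplotlib 3.10.9.

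Same-numbered KO and WT arrays deviated together: correlations of deviations from the genotype means were 0.448 (F_01), 0.551 (F_02), 0.535 (M_01) and 0.344 (M_02), and 0.141 in females and 0.172 in males once sex was removed. The labels do not say what a number shares, so the main fits used no pairing. The numbers served only as a block in an alternative fit and to set list means side by side.

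Genes and lists were chosen with earlier results of these data known. Named genes were all that passed, Stk38, Stk38l, Bcl2l11, the 5 smallest p per direction among the rest, up to 4 members of each list and the 3 smallest p of the sex interaction. Others, such as Slc15a2 and further members of the NDR list, were named after their values were seen. Lists are described by counts and medians, with no test. Alternatives changed the arrays in the fit, the probe set, the filter, the pseudocount (16), the normalization, the covariate, the variance model and the arrays left out.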

Additional observations from a re-analysis of the deposited data

Results flagged for a closer look

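Of 106 groups of 4 arrays examined, 4 held an array standing apart from the other 3 by Dixon's criterion at the 95% level, fewer than the about 1 in 20 that chance gives. Slc15a2 was at 10.69 in KO thymus M_01 and at 3.73 to 4.50 in the other KO thymi. Eme2 was at 5.95 in KO thymus M_01 and at 5.16 to 5.27 in the other KO thymi, and all 4 values were below those of WT. Bcl2l11 was at 12.16 in KO thymus F_02 and at 11.92 to 11.95 in the other KO thymi. Afdn, which encodes the junction protein afadin and was at +0.96 in KO against WT (limma adjusted p = 0.0776), was at 7.14 in WT thymus F_01 and at 7.48 to 7.52 in the other WT thymi.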

How the results depend on the processing

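The count of 12 genes was 26 (12 higher in KO) with all 12 thymus arrays in the fit, 36 with limma's trended, robust variance and 6 with the replicate block; it was 5 to 11 when 1 array was left out, 5 without WT thymus F_02, 6 without WT thymus M_01 and 7 without WT thymus M_02. The cause was not tested, beyond fewer arrays when 1 is left out. The other planned settings gave 9 to 17. Baiap3, Eme2, Slc49a4 and Zfp40 passed in all 18 alternatives and Zfp945 in 17, reversing to -0.12 with the mean of its probe sets. Anks1, Gnptg and Hspbap1 passed in 12, Zfp994 in 11, Zfp52 in 9, and Stk38 and Zfp943 in 8. The 12 probe sets became 21 with 12 arrays, 18 with the trended variance, 10 with the replicate block, and 2 to 12 with 1 array left out (2 without WT or KO thymus F_02, 3 without WT or KO thymus F_01, 4 without WT thymus M_02). The sex interaction stayed at 0 in every setting run. Stk38 was at -0.25 (limma adjusted p = 0.816) with the mean of its probe sets and lost its call without the sex term (adjusted p = 0.200). The plain difference of means of its main probe set, without the sex term, ranged from -1.08 to -0.85 with 1 array left out. The exact permutation p of that difference was 0.0571 without WT thymus F_01, F_02 or M_02. Medians of gene lists, recomputed in settings chosen after the data were seen, moved by more than their spread in 4 of 503 cases. Quantile normalization on top changed nothing, as the arrays already share a distribution.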
